A study of Mus musculus with 34 samples.

Results

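The cytosolic ribosomal protein genes encode the protein parts of the ribosome, and their transcripts were measured in mammary epithelial cells (MECs) of the mouse on Illumina WG-6 v2 bead arrays. Members were all probes whose gene symbol is Rpl or Rps followed by a number and at most a letter or l, together with Rplp0, Rplp1, Rplp2 and Rpsa. S6 kinases, binding proteins and pseudogenes were left out. The rule used no measured value and found 89 of the 45281 probes on the array, which stand for 60 of 19057 named genes. Of these genes 36 encode proteins of the large subunit, with 55 probes, and 24 encode proteins of the small subunit, with 34 probes. A single probe stood for 40 genes, and 20 genes had several probes.

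The arrays came from 4 sorted populations of virgin MMTVrtTA/H2BGFP females, aged 4 weeks and of CD1 background backcrossed to FVB: GFP+ CD24+CD29+ cells (n = 9), GFP- CD24+CD29+ cells (n = 6), GFP+ CD24+CD29lo cells (n = 9) and GFP- CD24+CD29lo cells (n = 10). All animals carried both transgenes and received doxycycline throughout, so GFP- cells are transgenic cells without the histone H2B-GFP label and not cells of wild-type animals. The MMTV promoter drives the reverse transactivator, and the paper detected the label in only a fraction of MECs. Blood, endothelial and dead cells were gated out before sorting. The labels do not say which samples came from separate animals, so p-values measure the spread between these samples, which may be technical. The 34 arrays fell into a first set of 12 and a second set of 22, told apart by the medians of the authors' processed values; GFP- CD24+CD29+ arrays were all in the second set, while the other groups had 4 arrays each in the first.

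The sorted groups were checked on marker lists, and the share of probes detected ranged from 26.3% of the array (GFP+ CD24+CD29lo replicate 22) to 46.7%. The summed normalized level of 10 basal markers was 37620 to 65330 in GFP+ CD24+CD29+ cells and 33690 to 43200 in GFP- CD24+CD29+ cells, against 1160 to 6655 in GFP+ CD24+CD29lo cells and 650.4 to 2761 in GFP- CD24+CD29lo cells. The summed level of 11 luminal markers ran the other way, at 1423 to 5178 over the CD24+CD29+ arrays and 16620 to 30440 over the CD24+CD29lo arrays. Of 7 haematopoietic markers with a probe, 3 or 4 were detected on no array of a group. The summed level of 6 fibroblast markers was 292.8 to 1305 in GFP+ and 837.5 to 2348 in GFP- CD24+CD29+ cells, against 171.6 to 533.1 in GFP+ and 156.8 to 531.9 in GFP- CD24+CD29lo cells.

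A ribosome is built from a small subunit, which binds messenger RNA and reads its codons, and a large subunit, which joins amino acids into protein. Ribosomal proteins are made in near-equal amounts and assembled with ribosomal RNA in the nucleolus, and most of their messenger RNAs begin with a tract of pyrimidines, the 5′ terminal oligopyrimidine (TOP) motif, through which mTOR signalling and the binding protein LARP1 set how much they are translated. Dividing cells and cells with high protein output, such as the secretory epithelium of the mammary gland, are known for high ribosome content.

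The letters around the transcription start were searched for runs of pyrimidines, and RefSeq (GRCm38.p6) held 59 promoter entries for 49 of the 60 genes. In a window of 15 bases on each side of the start, a run of 8 or more C or T on the gene's strand was found at 21 of 59 entries (35.6%), against 3943 of 32851 entries of all genes (12%) and 9 of 75 entries of mitochondrial ribosomal protein genes (12%). The same run on the other strand, read as A or G, was at 1 member entry (1.69%) and at 13.2% of all entries. A start that is itself C and is followed by 4 bases of C or T was annotated at 9 member entries (15.3%), at 2.51% of all entries and at 0 of the mitochondrial entries. The windows of 13 genes, picked from those named below, are printed here in the direction of transcription. Capitals mark the longest run of C and T, and the annotated start is the base that follows the first 15. Rpl22 and Rps19 had further entries downstream, which are not printed. Rps20 had no entry, and the entries of Rps24 and Rpl36a, also named below, are not printed.
Rps10, chr17:27635230-27635259, minus strand: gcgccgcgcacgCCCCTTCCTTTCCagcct
Rps6, chr4:86857353-86857382, minus strand: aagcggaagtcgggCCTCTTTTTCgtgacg
Rpl35, chr2:39005117-39005146, minus strand: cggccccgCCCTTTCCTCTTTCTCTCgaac
Rplp2, chr7:141447636-141447665, plus strand: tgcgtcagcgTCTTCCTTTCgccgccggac
Rpl7a, chr2:26910792-26910821, plus strand: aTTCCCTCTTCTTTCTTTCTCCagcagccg
Rpl31, chr1:39367836-39367865, plus strand: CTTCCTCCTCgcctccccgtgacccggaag
Rpl22, chr4:152324421-152324450, plus strand: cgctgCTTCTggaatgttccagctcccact
Rpl36al, chr12:69184053-69184082, minus strand: caTTCCCgtcgctcaggttcagttccgact
Rpl12, chr2:32961697-32961726, plus strand: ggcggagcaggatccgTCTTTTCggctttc
Rps19, chr7:24884577-24884606, plus strand: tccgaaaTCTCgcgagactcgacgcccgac
Rps2, chr17:24720048-24720077, plus strand: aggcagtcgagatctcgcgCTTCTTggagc
Rps23, chr13:90923107-90923136, plus strand: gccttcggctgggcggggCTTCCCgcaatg
Rpl23, chr11:97782425-97782454, minus strand: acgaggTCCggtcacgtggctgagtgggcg
Among these 13 windows the runs ranged between 21 bases at Rpl7a and 3 at Rpl23, and 6 windows held a run of 8 or more. A match to these letters describes the annotated window and is no measure of a start used in these cells.

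Most member transcripts were detected on every array, that is, with a detection p under 0.05 against the negative controls. This held for 67 probes of 52 genes on all 34 arrays, while 19 probes were detected on 1 to 33 arrays and 3 on 0. The 67 probes lay at a median percentile of 98.9 among all probes of an array, with 29 above the 99th and 59 above the 90th percentile. The 3 probes detected on 0 arrays were those of Rpl3l, which in muscle takes the place of Rpl3, of Rpl39l, which is best known from testis, and one of the probes of Rps19. Rps4l, a relative of the X-linked Rps4x, was detected on 1 array. Other paralogs were detected throughout: Rps27l, a p53 target related to Rps27, was at a median percentile of 95.5, and Rpl36al, the autosomal copy of the X-linked Rpl36a, at 99.5, both on all 34 arrays.

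In CD24+CD29lo cells, the luminal gate, member probes leaned towards higher levels in GFP+ cells, and no single member passed the test. Of 87 member probes that passed the filter on low signal, 65 had a positive difference (74.7%) with a median of 0.18 on the log2 scale, beside 51.9% positive and a median of 0.0101 over all 31919 probes tested. With 1 probe a gene the count was 50 of 59, with a median of 0.24. limma called 0 members at a Benjamini-Hochberg adjusted p under 0.05, against 1.03% of all probes in either direction. The differences ran from -0.917 to 0.801, and 80 of 87 were within 1.5-fold. An unadjusted p under 0.05 was found for 12 members (13.8%), against 9.86% of all probes. With a term for the array set it was found for 29 members (33.3%), against 12.7% of all probes. Within the first set it was found for 26 (29.9%, against 14.9%) and within the second for 8 (9.2%, against 7.65%). Under median scaling in place of quantile normalization the median was 0.0466 and 48 of 87 were positive.

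**Figure D1:**
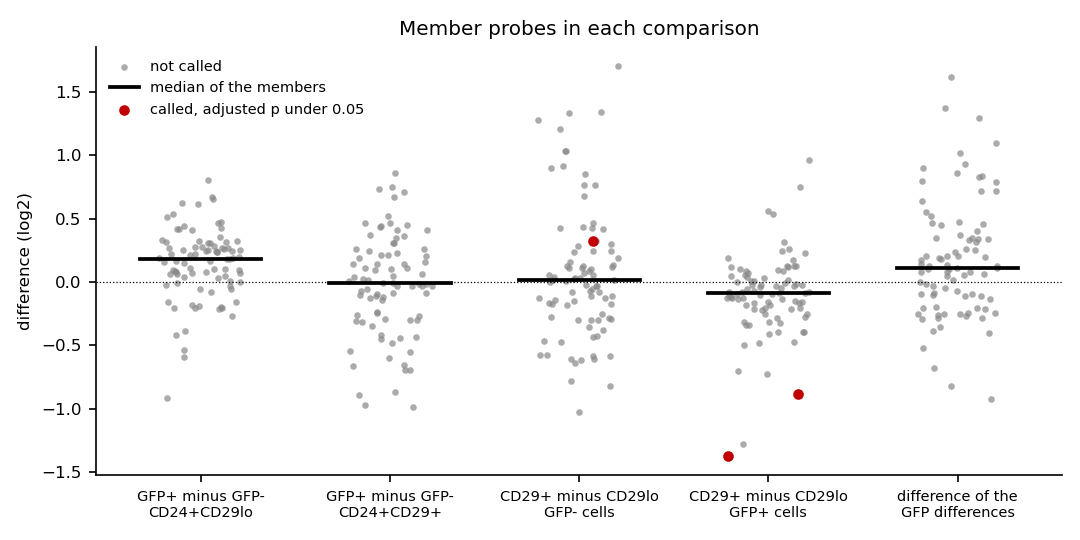
Differences on the log2 scale (vertical axis) of the member probes in each of 5 comparisons (horizontal axis), each point a probe, black bars the median of the members and red points those called by limma. The medians were 0.18 and -0.0105 for GFP+ minus GFP- in the CD24+CD29lo and CD24+CD29+ gates, 0.0154 and -0.0903 for CD24+CD29+ minus CD24+CD29lo in GFP- and GFP+ cells, and 0.113 for the difference of the GFP differences; 3 points in all were called.

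Rps10 and Rps19, both of the small subunit, had the lowest p-values. Rps10, a protein of the small-subunit head that is mutated in some Diamond-Blackfan anaemias, had a lowest, median and highest level of 10.63, 10.8 and 10.9 in GFP+ cells, against 10.26, 10.47 and 10.72 in GFP- cells. The means were 10.79 ± 0.0982 (SD, n = 9) in GFP+ cells and 10.47 ± 0.15 (SD, n = 10) in GFP- cells, and the ranges overlapped at their ends. The difference was 0.313 (SE 0.0796; limma adjusted p = 0.072). It was called without background correction (adjusted p = 0.0141), without the filter (0.0245), in the authors' processed values (0.0273) and with the methods' t-test (0.0134). It was not called with a term for the array set (0.0516), nor within the first set (0.399) or the second (0.373). Rps19, the gene most often mutated in Diamond-Blackfan anaemia, was at 12.66, 12.96 and 13.2 in GFP+ cells, against 12.28, 12.41 and 13.02 in GFP- cells. Its difference was 0.42 (SE 0.113; limma adjusted p = 0.1). It was called once a term for the array set was in the fit (0.429, adjusted p = 0.0395) and in the authors' processed values (0.414, adjusted p = 0.0124). It was also called without GFP- CD24+CD29lo replicate 20 (0.472, adjusted p = 0.0339).

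Large-subunit members followed, with probes of one gene that disagreed. Rpl12, a protein at the base of the ribosomal stalk, was at 12.26, 12.45 and 12.55 in GFP+ cells, against 11.92, 12.19 and 12.38 in GFP- cells, a difference of 0.249 (SE 0.082; limma adjusted p = 0.223). Rpl31, which lies near the exit of the peptide tunnel, had 3 probes. The probe ILMN_3152328 was at 11.9, 12.06 and 12.25 in GFP+ cells, against 11.4, 11.73 and 12.08 in GFP- cells, with a difference of 0.315 (SE 0.0941; limma adjusted p = 0.156). The others did not share its sign and size, with -0.917 (SE 0.309; limma adjusted p = 0.238) for ILMN_3073486 and 0.0811 for ILMN_1221124. In the authors' processed values limma called Rpl12 (0.252, adjusted p = 0.0154) and ILMN_3152328 of Rpl31 (0.329, adjusted p = 0.0242). Opposite signs among a gene's probes were found in 12 of 19 member genes with several probes tested. Rps6, a small-subunit protein and the classical substrate of the S6 kinases, spread more widely, at 9.726, 10.27 and 10.8 in GFP+ cells against 8.686, 9.8 and 10.38 in GFP- cells (difference 0.534, SE 0.203; limma adjusted p = 0.334).

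**Figure D2:**
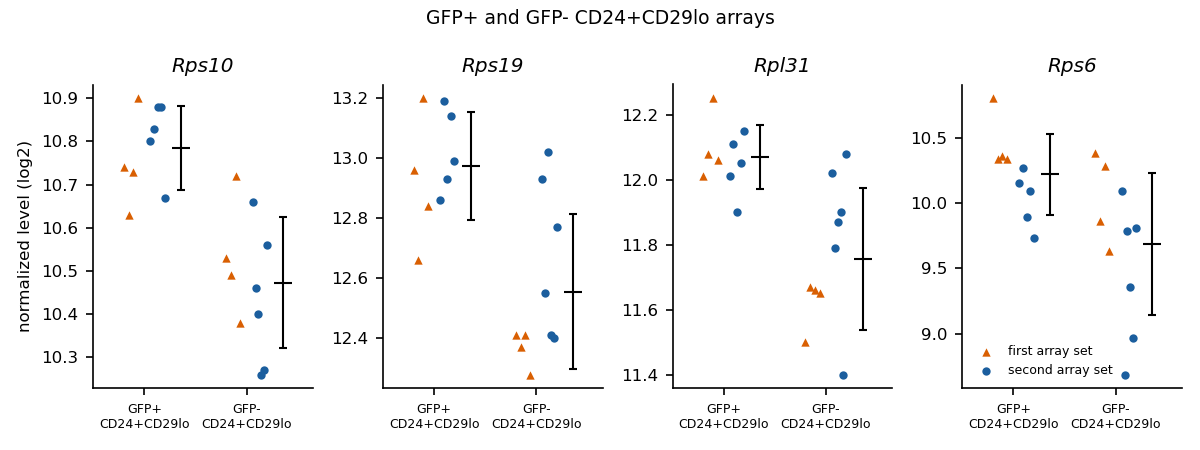
Normalized levels (log2, vertical axes) of Rps10, Rps19, Rpl31 (ILMN_3152328) and Rps6 on the GFP+ (left) and GFP- (right) CD24+CD29lo arrays, with mean ± SD. Triangles are the first array set and circles the second; GFP+ and GFP- ranges overlap for each of the 4 probes, while those of Rps19 and of the Rpl31 probe do not overlap within the first set, nor those of Rps10 within the second.

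The proteins of the stalk, which recruits elongation factors, did not move as one. The differences were 0.466 for Rplp1 (limma adjusted p = 0.741), 0.179 for the detected probe of Rplp2 (0.824), and -0.592 (0.66) and 0.0289 (0.994) for the probes of Rplp0. Rpsa, a small-subunit protein also known as the laminin receptor, had -0.205 (adjusted p = 0.827) and 0.0978 at its probes. Among the paralog pairs, the X-linked Rpl36a had 0.333 (0.738) and its autosomal copy Rpl36al 0.0474 (0.95). Rpl22 had 0.281 (0.753), Rpl39 0.195 (0.556), Rps4x 0.146 (0.865), Rpl3 0.0607 (0.979), Rps27l -0.189 (0.856) and Rpl13a -0.216 (0.786), all adjusted p-values from the same limma fit.

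The lean was present in both array sets, with 57 of 87 members positive in the first (65.5%, median 0.167; 49.5% of all probes) and 64 of 87 in the second (73.6%, median 0.128; 52% of all probes), and the sets differed in how often the groups separated. In the first, 20 of 87 member probes (23%) of 19 genes had every GFP+ array (n = 4) above every GFP- array (n = 4), and 0 had the reverse, against 4.42% of all probes in the same direction. In the second set, with 5 GFP+ and 6 GFP- arrays, this held for Rps10 alone (1.15% of the members, 0.536% of all probes). The 20 probes had a median difference of 0.56 in the first set, the set that picked them, and of 0.136 in the second, where 17 were positive. limma on the first set alone called 4 members, Rps24, Rps2, Rpl36a and Rpl35, against 1.05% of all probes.

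Single members show how far the sets differed. Rps2 (ILMN_2717549), a small-subunit protein at the messenger RNA entry, was at 12.09 to 12.27 in GFP+ cells and 9.31 to 10.86 in GFP- cells of the first set, a difference of 2.05 (limma adjusted p = 0.0298). In the second set the same probe was at 12.95 to 13.39 in GFP+ cells and 12.98 to 13.66 in GFP- cells, a difference of 0.05. Rps24 (ILMN_3126986), another gene of Diamond-Blackfan anaemia, was at 13.17 to 13.6 in GFP+ cells and 11.53 to 12.31 in GFP- cells of the first set (1.46; adjusted p = 0.0217) and had 0.128 in the second. The other probes of these genes did not separate in the first set, with -0.116 for Rps2 (ILMN_2946616) and -0.186, 0.396 and -0.192 for Rps24. Rpl35, with the long pyrimidine run printed above, was at 12.2 to 12.48 in GFP+ cells and 11.41 to 11.77 in GFP- cells of the first set (0.756; adjusted p = 0.0445; 0.211 in the second), and Rpl36a was at 13.09 to 13.48 in GFP+ cells and 12.18 to 12.58 in GFP- cells (0.827; adjusted p = 0.0396; 0.0495 in the second).

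The median level per array over the 67 probes detected throughout showed the same split. In the first set it was 11.57 to 11.79 in GFP+ CD24+CD29lo cells and 10.96 to 11.34 in GFP- CD24+CD29lo cells, without overlap, while in the second set it was 11.18 to 11.81 in GFP+ and 10.89 to 11.64 in GFP- cells. The raw signal summed over the 89 member probes made up 1.53% to 1.79% of an array in GFP+ and 1.24% to 1.39% in GFP- CD24+CD29lo cells of the first set, and 2.51% to 3.46% in GFP+ and 2.75% to 3.12% in GFP- cells of the second. Marker lists were read on the same arrays, with ranges that overlapped between GFP+ and GFP- cells. For 4 dividing-cell markers, of which limma called 0, the summed level was 231.9 to 873.2 (median 396.6) in GFP+ CD24+CD29lo cells and 385.4 to 868.2 (median 708.5) in GFP- CD24+CD29lo cells. That of the 10 basal markers had a median of 2860 in GFP+ and 1634 in GFP- CD24+CD29lo cells, with Acta2 called (2.61; adjusted p = 0.0437). That of the 11 luminal markers was 16620 to 29390 in GFP+ and 16930 to 30440 in GFP- CD24+CD29lo cells, with 3 called lower and 0 higher. Their part in the member levels was not tested. In sorted pools, fewer cells of a type and less RNA per cell cannot be told apart.

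**Figure D3:**
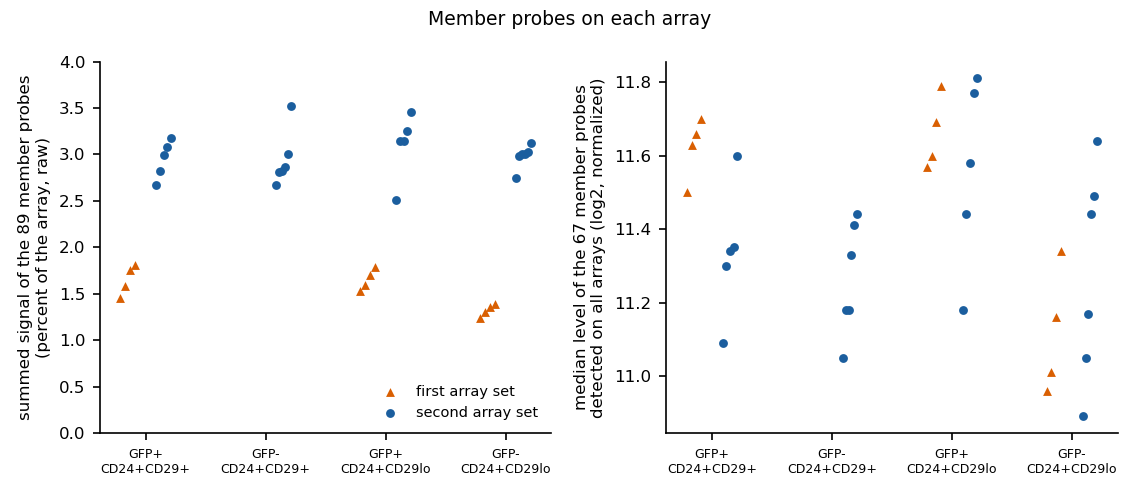
Left, the raw signal summed over the 89 member probes as a percent of each array's total; right, the median normalized level (log2) of the 67 member probes detected on all arrays. Each point is an array in one of the 4 groups (horizontal axis), triangles the first and circles the second array set; the share was 1.24% to 1.81% in the first set and 2.51% to 3.52% in the second.

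In CD24+CD29+ cells, the basal gate, GFP+ and GFP- cells gave member levels on both sides of each other. Of 84 member probes tested, 40 were positive, with a median of -0.0105, beside a median of -0.0196 over all 32737 probes. limma called 0 members, against 0.0305% of all probes, and 10 members (11.9%) had an unadjusted p under 0.05, against 8.76% of all probes. With a term for the array set, 0 members had an unadjusted p under 0.05, against 5.18% of all probes, and the median was 0.0188. Under median scaling 22 of 84 were positive, with a median of -0.267.

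The members of lowest p had their largest differences where the array set was not accounted for. Rps6 was at 9.284, 10.03 and 10.78 in GFP+ cells, against 8.73, 9.208 and 10.08 in GFP- cells, a difference of 0.67 (SE 0.247; limma adjusted p = 0.549). It was 0.374 with the set term (adjusted p = 0.926). Rpl3, which reaches towards the peptidyl transferase centre, was at 12.37, 13.85 and 14.03 in GFP+ cells, against 13.69, 14.01 and 14.22 in GFP- cells (-0.694, SE 0.298; adjusted p = 0.56), and its difference was -0.0775 with the set term. Rpl38 (ILMN_3135931), which in mouse embryos is needed for translation of Hox messenger RNAs, had -0.663 (adjusted p = 0.555) and -0.129 with the set term. Rplp2 (ILMN_2924136), a protein of the stalk, had 0.45 (adjusted p = 0.554) and 0.175 with the set term.

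Among the other members named in every comparison, Rplp1 had 0.75 (limma adjusted p = 0.561), Rps4x 0.412 (0.561) and the probe ILMN_2744356 of Rplp0 -0.697 (0.623). Rps19 and Rpl12 were near 0 in this gate, at 0.0265 (SE 0.147) and -0.00488 (SE 0.0854), and Rps10 was at 0.108 (SE 0.157). Whether the GFP difference itself differed between the gates was tested as an interaction over all 34 arrays: 0 members were called, against 0.27% of all probes, and 3 members (3.45%) had an unadjusted p under 0.05, against 8.26% of all probes. The median of CD24+CD29lo minus CD24+CD29+ was 0.113 over the members, with 55 of 87 positive, and 0.0199 over all probes. The lowest p-values belonged to Rpl31 (0.343, SE 0.14; limma adjusted p = 0.499), Rpl12 (0.26, SE 0.108; 0.513), Rps19 (0.402, SE 0.178; 0.552) and Rpl37 (0.449, SE 0.233; 0.631).

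Between the gates, basal against luminal, 3 member probes were called, 1 in GFP- cells and 2 in GFP+ cells. In GFP- cells, CD24+CD29+ minus CD24+CD29lo, limma called 1 of 87 members higher, against 5.29% of all probes, and 0 lower, against 5.04%; 20 (23%) had an unadjusted p under 0.05, against 22.3% of all probes, 46 were positive and the median was 0.0154, beside 0.0172 over all 35870 probes. The member called was Rpl31 (ILMN_3152328), at 11.88, 12.04 and 12.5 in GFP- CD24+CD29+ cells, against 11.42, 11.75 and 12.11 in GFP- CD24+CD29lo cells. It rose by 0.325 (SE 0.104; adjusted p = 0.0383), a 1.25-fold change, with ranges that overlapped. Fibroblast markers moved in the same comparison, with 3 of 6 called higher and 0 lower, as did 2 of 6 in GFP+ cells; their part in the member levels was not tested. The other probes of Rpl31 had -0.431 (adjusted p = 0.62) and 0.115 (0.888).

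The call of Rpl31 depended on single libraries and on the processing. It was lost under median scaling (0.624; adjusted p = 0.09), with a filter on detection (0.135) and with the methods' t-test (0.125). It was also lost in 8 of 34 fits that left out 1 array: GFP- CD24+CD29+ replicate 29 (adjusted p = 0.0697), 30 (0.0969) or 33 (0.15, with a difference of 0.246), and GFP- CD24+CD29lo replicate 5 (0.0734), 6 (0.0613), 7 (0.0613), 8 (0.0625) or 27 (0.0681). All 8 of these arrays were GFP-, and leaving out a GFP+ array does not change the difference. The set term gave 0.307 (adjusted p = 0.0705), and the second set alone 0.234 (adjusted p = 0.419). Other members of low p were Rpl7a, a large-subunit protein whose promoter run is printed above, at -0.782 (limma adjusted p = 0.0688), Rps13 (ILMN_2482591) at 1.21 (0.0754) and Rps12 (ILMN_2542938) at 0.32 (0.0899). This probe of Rps13, detected on 6 of 10 GFP- CD24+CD29lo arrays, was called with the set term, at 1.42 (adjusted p = 0.0365), while the other, ILMN_2940017, detected on all arrays, had -0.611 and with the set term -0.205. Opposite signs among a gene's probes were found in 13 of 19 member genes in this comparison, counted over all probes tested, detected or not.

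In GFP+ cells, CD24+CD29+ minus CD24+CD29lo, 2 of 87 members were called lower, against 4.86% of all probes, and 0 higher, against 5.53%; 8 (9.2%) had an unadjusted p under 0.05, against 19.6% of all probes. Of the 87, 28 were positive (32.2%), with a median of -0.0903 beside -0.00841 over all probes. This comparison shares no arrays with that in GFP- cells, while each shares its CD24+CD29lo arrays with the GFP comparison in that gate.

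Rps20, a protein of the small-subunit head, fell in GFP+ CD24+CD29+ cells: it was at 4.679, 5.763 and 7.05, against 6.505, 7.347 and 8.529 in GFP+ CD24+CD29lo cells. The means were 5.933 ± 0.741 and 7.303 ± 0.591 (SD, n = 9 each), and the probe was detected on 8 of 9 CD24+CD29+ arrays and 9 of 9 CD24+CD29lo arrays. The difference was -1.37 (SE 0.373, limma adjusted p = 0.012), or 2.59-fold, and was called with the set term (adjusted p = 0.0123). It was called in all 34 fits without 1 array, of which those without a GFP- array leave the difference itself unchanged. It was -0.993 within the first set (adjusted p = 0.0704) and -1.67 within the second (0.0911). In GFP- cells, Rps20 averaged 6.024 ± 1.14 (SD, n = 6) in CD24+CD29+ cells and 7.057 ± 0.825 (SD, n = 10) in CD24+CD29lo cells. It was detected on 4 of 6 and 10 of 10 of these arrays. This probe, the only one of Rps20, was dim, with a median raw signal of 202.4 in the first set and 195.2 in the second. Rpl39l, detected on 0 arrays, had 96.8 and 126.2.

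Rpl22, a large-subunit protein that also binds viral and cellular RNA hairpins and whose loss in mice blocks a T-cell lineage, fell as well. It was at 6.938, 7.719 and 8.456 in GFP+ CD24+CD29+ cells, against 7.817, 8.867 and 9.262 in GFP+ CD24+CD29lo cells, with means of 7.844 ± 0.513 and 8.732 ± 0.462 (SD, n = 9 each). The difference was -0.888 (SE 0.274; limma adjusted p = 0.0309), or 1.85-fold. It was called in 26 of 34 fits without 1 array, and leaving out a GFP- array does not change the difference. All losses were among the GFP+ arrays. The call was lost without GFP+ CD24+CD29+ replicate 9 (adjusted p = 0.0524), 17 (0.0507), 24 (0.074, with a difference of -0.774) or 32 (0.0585). The call was lost as well without GFP+ CD24+CD29lo replicate 2 (0.0641), 4 (0.0556), 16 (0.0543) or 19 (0.056). It was also lost under median scaling (-0.889; adjusted p = 0.0591) and within the first set (-0.713; 0.159) and the second (-1.03; 0.176). Its paralog Rpl22l1, whose messenger RNA Rpl22 is known to repress and whose symbol falls outside the rule, had -0.834 (SE 0.188; adjusted p = 0.00203) in the same comparison. In GFP- cells, Rpl22 had -0.174 (adjusted p = 0.803).

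Rpl36al, the expressed autosomal copy of Rpl36a, had a small difference that turned on how the array set was handled. It was at 11.73, 12.03 and 12.31 in GFP+ CD24+CD29+ cells, against 11.88, 12.48 and 12.68 in GFP+ CD24+CD29lo cells (-0.339, SE 0.127; limma adjusted p = 0.093). The set term brought the SE to 0.0814 and the adjusted p to 0.0035, and the second set alone gave -0.42 (adjusted p = 0.0105). In GFP- cells it was -0.166 (adjusted p = 0.532), and with the set term -0.345 (adjusted p = 0.0126). Rpl7a also passed in GFP+ cells with the set term (-0.495; adjusted p = 0.00712; 0.285 without it). For Rpl36a, the X-linked copy, the difference was 0.118 (adjusted p = 0.851) in GFP+ cells and 0.436 (0.255) in GFP- cells.

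**Figure D4:**
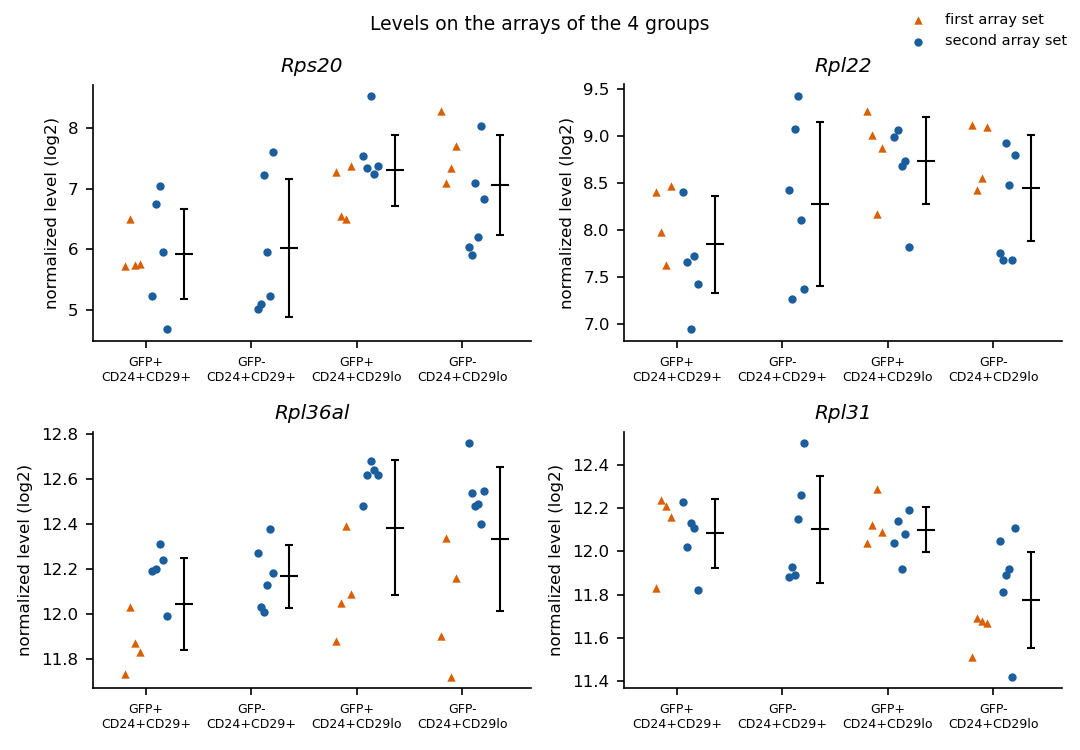
Normalized levels (log2, vertical axes) of Rps20, Rpl22, Rpl36al and Rpl31 (ILMN_3152328) on the arrays of the 4 groups, with mean ± SD; triangles are the first and circles the second array set. Rps20 averaged 5.933 in GFP+ CD24+CD29+ and 7.303 in GFP+ CD24+CD29lo cells, and Rpl36al lay higher on the second set's arrays in the CD24+CD29lo groups.

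The array set gave more member calls than each of the 5 comparisons of sorted cells. Second minus first set, 25 of 87 members were called higher by limma, against 11.2% of all probes, and 21 lower, against 9.84%, with differences between -1.81 and 3.03 and a median of 0.101. For 16 members (18.4%), 10 higher and 6 lower, no array of one set overlapped those of the other, against 1.42% of all probes. Rpl23 (ILMN_2742807), a large-subunit protein that can bind MDM2, was at 14.88, 14.99 and 15.32 in the second set and 9.689, 12.52 and 13.32 in the first, a difference of 3.03 (SE 0.243; limma adjusted p = 2.8e-11). The raw signal of that probe was 25340 to 47520 in the second set and 955.2 to 6909 in the first. Rps23, a protein of the decoding site, was at 12.74, 13 and 13.31 in the second set and 9.649, 10.82 and 11.35 in the first, a difference of 2.28. Rpl3 differed by 1.53 with a small error (SE 0.0663; adjusted p = 1.3e-17).

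Probes of one gene went opposite ways between the sets. Rps2 had the lowest difference of all members at ILMN_2946616, -1.81 (SE 0.156; limma adjusted p = 1.16e-10), with 8.515, 10.06 and 10.58 in the second set and 11.47, 11.78 and 12.01 in the first, and 1.71 at ILMN_2717549. The 3 other probes of Rpl23 had 0.455, 0.91 and 0.0441. Over 34 arrays, the Pearson correlation of these Rps2 probes was -0.69, while it was -0.19 within the first set and 0.12 within the second. Among 22 pairs of probes of one gene that were both detected on all 34 arrays, the median correlation was 0.265 and 5 were negative; the pairs of Rpl4 (0.94), Rps9 (0.93) and Rpl30 (0.83) were close. These correlations are descriptions, since all points share the array set. In the authors' processed values, 2 members were called higher and 0 lower between the sets, against 0.0864% of all probes in either direction, with differences of -0.267 to 0.567. The authors had corrected those values for 2 collection dates. The labels do not say whether the sets are those dates, so this count is no test of a set difference. Ribosomal protein genes have many processed pseudogenes of near-identical sequence, and which of these a probe also binds was not examined.

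**Figure D5:**
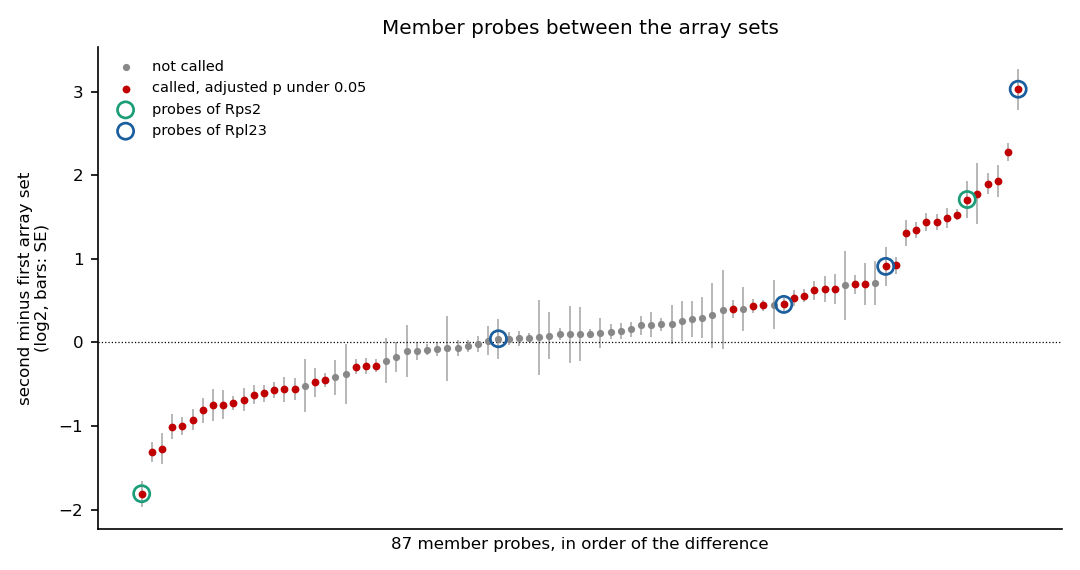
Second minus first array set for the 87 member probes tested (horizontal axis, in order of the difference), on the log2 scale with bars of 1 SE; red points were called by limma, green rings mark the probes of Rps2 and blue rings those of Rpl23. The differences ran from -1.81 to 3.03, with Rps2 probes at -1.81, the lowest of all, and at 1.71.

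Genes that work with the ribosome were set beside the members. Mitochondrial ribosomal proteins build the separate ribosome of the mitochondrion. For GFP, limma called 0 of 75 tested in CD24+CD29lo cells and 0 of 73 in CD24+CD29+ cells. An unadjusted p under 0.05 was found for 6 and 5 of these, against 9.86% and 8.76% of all probes. With 1 probe a gene, 19 of 75 were positive in CD24+CD29lo cells, with a median of -0.175. Counted alike, 50 of 59 cytosolic members were positive, with a median of 0.24. Between the gates 10 were called lower and 0 higher in GFP- cells, against 5.04% and 5.29% of all probes, and 7 lower and 1 higher in GFP+ cells, against 4.86% and 5.53%. Mrpl40 fell by 2.08 in GFP- cells (adjusted p = 0.00223) and by 1.86 in GFP+ cells (0.00244), and Mrpl14 fell by 1.89 (0.015) and by 1.82 (0.00889), CD24+CD29+ minus CD24+CD29lo throughout. Mrpl4 rose by 1.43 in GFP+ cells (adjusted p = 0.0227).

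Factors that build ribosomes or govern their proteins are read against the shares of all probes called between the gates, which were 5.29% higher and 5.04% lower in GFP- cells and 5.53% higher and 4.86% lower in GFP+ cells. Of 41 ribosome biogenesis genes, 1 was called higher and 1 lower in each gate comparison: Nop58, a core protein of box C/D RNA particles, rose by 1.5 in GFP- cells (limma adjusted p = 0.000363) and by 0.981 in GFP+ cells (0.011), while Nop10, of the H/ACA RNA particles, fell by 1.43 in GFP- cells (0.0236) and Sbds, which helps free new large subunits for use, by 1.2 in GFP+ cells (0.0227). A list of 16 genes with TOP messenger RNAs held elongation and initiation factors, the poly(A)-binding Pabpc1 and others. Of these 16, Tpt1 alone was called, 0.527 higher in GFP- CD24+CD29+ cells (0.0487). Among 14 regulators, Myc, which drives transcription of ribosomal protein genes, rose by 1.11 in GFP- cells (0.000275) and by 0.8 in GFP+ cells (0.00364), and its relative Mycn rose by 1.1 in GFP- and by 1.01 in GFP+ cells. Mdm2, the p53 ligase that free ribosomal proteins bind, rose by 1.06 in GFP- and by 0.759 in GFP+ cells. Larp1, the TOP-binding repressor, fell by 0.933 in GFP- cells (0.00434) and had -0.351 in GFP+ cells (0.378). In the GFP comparisons, 0 genes of these 3 lists were called by limma. Of all probes, 1.03% were called in the CD24+CD29lo gate and 0.0305% in the CD24+CD29+ gate. In CD24+CD29lo cells, 4 of 40 biogenesis genes, 1 of 16 TOP-list genes and 2 of 13 regulators had an unadjusted p under 0.05. The share of all probes was 9.86%. In CD24+CD29+ cells the counts were 5 of 41, 4 of 15 and 2 of 14, against 8.76% of all probes.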

How the data were processed

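RNA of sorted MECs was amplified and hybridised to Illumina WG-6 v2 arrays, 34 samples in 4 groups. The deposited intensity values are the authors' bead-summary signals per probe, not normalized, and beside each signal the authors deposited a fraction that is 1 minus its detection p-value; signals ran from 70 to 49504.6. The authors' processed log2 values were deposited too and, per the methods, were quantile normalized and corrected for 2 collection dates; these served as an alternative. The submitters' processing notes name R 2.14.1. Columns of values mapped to no sample numbered 0.

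Signals were background-corrected, quantile normalized and log2-transformed with neqc (limma 3.58.1, R 4.3.3, offset 16), for each gate alone in the GFP comparisons and for all 34 arrays otherwise. Probes above the 20th percentile on 80% of the arrays of a group were tested with lmFit and eBayes, with Benjamini-Hochberg adjustment over all tested probes and a threshold of 0.05; 2 member probes fell below the filter in CD24+CD29lo cells and over all arrays, and 5 in CD24+CD29+ cells. The number of arrays limits the precision, and saturation was not assessed. The fits were also run on simulated data with independent noise and no shift between array sets. Those data cannot show how the array set affects the fits. Of the probes, 34885 had 1 symbol in the platform annotation, 18 several and 10378 none; all 89 member symbols matched RefSeq.

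Array sets were read from the medians of the processed values, after seeing the data: the lowest of the first set was 6.9225 and the highest of the second 6.9162. By rank correlation of its signals, each of 34 arrays was nearest to the processed column of the same sample, and 0 arrays were identical. Named genes were, for each comparison, members called with the largest differences, or else the 4 of lowest p, with a fixed set of stalk, subunit-joining, anaemia and paralog genes wherever a probe exists, and genes with only some probes called; members singled out within an array set, Rpl36al and Rpl7a with the set term, and single genes of the other lists were chosen after their values were seen. Members and lists were chosen with earlier results of these data known. Alternatives changed the background correction, scaling, filter, array set, test, and each array in turn.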

Additional observations from a re-analysis of the deposited data

Results flagged for a closer look

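Among 120 groups of samples (30 named probes in 4 groups), 9 held a sample far from the others of its group, on the log2 scale over all 34 arrays; chance marks about 1 in 20 groups. GFP- CD24+CD29lo replicate 27 was low for Rplp1 (9.39, against 11.03 for the nearest array) and for the probe ILMN_2744356 of Rplp0 (5.72, against 8.1). For Rpsa, GFP- CD24+CD29+ replicate 13 stood out at 6.46 (nearest 5.46; ILMN_2607253) and GFP+ CD24+CD29+ replicate 17 at 5.57 (nearest 4.83; ILMN_2727876). GFP+ CD24+CD29+ replicate 15 was high for Rps24 (ILMN_1214875) at 8.65 (nearest 6.64) and low for Rpl39l at 4.57 (nearest 4.67), a probe detected on 0 arrays, for which GFP+ CD24+CD29lo replicate 34 was high at 4.84 (nearest 4.63). GFP+ CD24+CD29lo replicate 16 was high for Rplp2 (ILMN_2924140) at 5.42 (nearest 4.79), and GFP- CD24+CD29+ replicate 30 for Rps12 (ILMN_2542938) at 14.04 (nearest 13.66). The difference between gates in the response to GFP passed the test for 0 named members.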

How the results depend on the processing

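For GFP+ against GFP- CD24+CD29lo cells, the 0 member calls became 1 without background correction, 1 without the filter (Rps10, adjusted p = 0.0245), 1 with a term for the array set, 4 in the first set alone, 5 in the authors' processed values and 1 with the methods' t-test. For GFP+ against GFP- CD24+CD29+ cells, 22 in place of 40 differences were positive under median scaling. Median scaling gave members' medians of 0.0466 and -0.267 for GFP in CD24+CD29lo and CD24+CD29+ cells, 0.0813 and -0.113 between gates in GFP- and GFP+ cells, and 0.221 for the interaction. Between the gates in GFP- cells, 1 call became 5 in the processed values, 2 with the set term (Rps13 and Rpl36al) and 2 with the methods' t-test (Rps13 and Rpl7a), and Rpl31 was in neither pair. In GFP+ cells, 2 calls became 4 in the processed values, 4 with the set term and 0 in the first set alone. Over the 67 members detected on all arrays, which leave out Rps20, 1 was called. Positive differences were 28 of 87 (32.2%) over all member probes and 17 of 59 (28.8%) with 1 probe a gene. Between the array sets, 46 calls became 2 in the processed values, which the authors had corrected for 2 collection dates. The cause was not tested.

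With each array left out in turn, member calls ranged from 0 to 1, positive differences from 57 to 70 and the median from 0.148 to 0.219 for GFP in CD24+CD29lo cells; from 0 to 0, 37 to 45 and -0.0505 to 0.0404 in CD24+CD29+ cells; from 0 to 3, 39 to 48 and -0.0512 to 0.0571 between gates in GFP- cells; from 1 to 3, 20 to 36 and -0.127 to -0.0679 in GFP+ cells; and from 0 to 0, 52 to 58 and 0.0685 to 0.153 for the interaction. Of the values of named members under the alternatives, 0 turned their direction past a call, 28 gained and 12 lost a call.

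No paired analysis was possible because the labels give each sample a replicate number of its own. The methods' t-test for the interaction, and the first set alone wherever GFP- CD24+CD29+ arrays are needed, were not run. Depth is not defined for arrays; signal over background limits the 19 member probes detected on some arrays and the 3 detected on none.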
